A study of Mus musculus with 4 samples.

Results

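The genes described here are 30 of the 32285 genes counted in mouse pancreatic islet cells: the machinery that moves newly made secretory and membrane proteins into the endoplasmic reticulum (ER), removes their signal peptides and attaches N-linked glycans. They were taken by gene symbol, and all 30 symbols were found. They comprise 8 genes of the signal recognition particle and its receptor, 10 of the translocon, 5 of the signal peptidase and 7 of the oligosaccharyltransferase. The study took dispersed islet cells from 5-week-old NOD mice, the non-obese diabetic strain, for droplet-based single-cell RNA sequencing. Its 4 samples were labelled Xbp1β-/- (n = 2) or Xbp1fl/fl (n = 2). Both groups thus carry the floxed Xbp1 gene, and both were injected with tamoxifen, which switches on an inducible Cre recombinase. The labels name neither the Cre transgene nor the promoter that drives it, and do not say whether the Xbp1fl/fl mice carry it. Islets were hand-picked and kept in culture overnight before dissociation, so the levels are those of cultured islets.

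A protein bound for secretion begins with a signal peptide. The signal recognition particle binds it as it leaves the ribosome and docks the ribosome on its receptor in the ER membrane. The chain then passes through the Sec61 channel, the signal peptidase cuts off the signal peptide, and the oligosaccharyltransferase transfers a preassembled glycan to asparagine residues. Preproinsulin, preproglucagon and preprosomatostatin all enter the ER by way of a signal peptide, which makes this machinery central to hormone-producing islet cells. Xbp1 encodes a factor that the ER switches on when unfolded proteins build up, and genes of ER import and N-glycosylation are among its known targets in secretory cells.

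The deposited matrix pools all cells, and the cell barcodes carry 4 suffixes, here called libraries 1 to 4. The suffixes match no sample label, so no library could be assigned to a genotype, genotypes were not compared, and no difference below carries a p-value. The values of the single libraries are printed, always in the order of libraries 1, 2, 3 and 4. The libraries held 82963911, 178396311, 85266513 and 110800927 unique molecular identifiers (UMIs, 1 for each captured RNA molecule), and 16146 of 19987 barcodes passed the cell filter. The filter removed 12.0, 29.7, 13.8 and 13.1% of the barcodes of the 4 libraries. The median kept cell had 13287, 33052, 15759 and 27499 UMIs. Cells were classed by the share of their UMIs from 1 hormone gene: beta cells had at least 5% Ins2, alpha cells at least 5% Gcg and delta cells at least 3% Sst. Beta cells were further divided at 0.5% Spp1, the gene of the secreted phosphoprotein osteopontin. This gave 234, 3211, 356 and 2002 beta cells low in Spp1, 355, 131, 377 and 219 high in Spp1, 2046 alpha cells, 1383 delta cells, 5201 cells outside the gates and 631 cells past several gates, which were set aside. The Spp1 division is a range on a continuous measure, and 206 of 6885 beta cells lay within 20% of it. Of 16118 distinct cell barcodes, 28 occurred in more than 1 library.

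Hormone transcripts made up 45.0 to 57.8% of the UMIs of beta cells low in Spp1, 35.0 to 55.9% of those high in Spp1, 26.3 to 30.4% in alpha cells and 23.1 to 28.6% in delta cells. A level is therefore given as CPM, here the UMIs of a gene per 1000000 UMIs of all genes but the 7 hormone genes Ins1, Ins2, Iapp, Gcg, Sst, Ppy and Pyy. The text says where including those genes changes a result. Levels are compared within a gene, not between genes. All 30 members passed the filter on low counts in every comparison, with at least 56 UMIs for each in every class and library of gated cells. The scarcest was Srp54a, at 10.8 to 34.8 CPM across the classes. Srp54a has near-identical copies, Srp54b and Srp54c, from which the counting may not tell its reads apart, so its values are uncertain.

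The marker lists include the hormone genes of the gates, so those markers were present by definition. All 8 beta markers stood at 10 CPM or more in every library of both beta classes. So did all 6 alpha markers in alpha cells and all 5 delta markers in delta cells. That cut is low: 5 to 7 beta markers also passed it in alpha and in delta cells. Without hormone genes, the beta markers summed to 1768 to 3687 CPM in beta cells and to at most 269 in alpha and delta cells. Likewise, alpha markers summed to 5990 to 8644 CPM in alpha cells and to at most 4436 in beta and delta cells. Delta markers summed to 8766 to 12817 CPM in delta cells and to at most 1396 in beta and alpha cells. Macrophage markers summed to at most 313 CPM in the endocrine classes, and endothelial markers to at most 125. The 6 ductal markers, of which Krt8 and Krt18 are also known from endocrine cells, summed to 568 to 1318. The 7 acinar markers summed to 5086 CPM in the beta cells high in Spp1 of library 1 and to 3402 in its delta cells. They summed to at most 27.5 in those classes of the other libraries. Xbp1 itself stood at 128, 228, 109 and 222 CPM in beta cells low in Spp1 and at 56.4, 209, 46.3 and 212 in those high in Spp1. In alpha cells Xbp1 ran from 165 to 200.2 and in delta cells from 195 to 236. The sources used here do not say which part of the gene is deleted, and reads outside that part do not test the deletion.

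All 30 are protein-coding genes, and in the GENCODE M21 annotation of the mm10 genome they lie apart on 16 chromosomes. The members the results turn on most are Sec11c, at chr18:65800515-65817684 on the plus strand, Rpn2, at chr2:157279017-157326319 on the plus strand, Srp14, at chr2:118475850-118479711 on the minus strand, Ssr2, at chr3:88575876-88588419 on the plus strand, and Ssr4, at chrX:73787028-73790830 on the plus strand.

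Summed over its 30 genes, the machinery was most abundant in delta cells, followed by beta cells and then alpha cells, in libraries 1 to 4 alike when beta cells low in Spp1 were taken. It took 1.13, 1.61, 1.17 and 1.75% of non-hormone UMIs in delta cells. In beta cells low in Spp1 the shares were 1.08, 1.40, 1.00 and 1.45%. In alpha cells they were 0.848, 0.954, 0.827 and 0.959%. Delta cells and beta cells were closest in library 1, where delta cells had 1.13% (exact Poisson 95% interval 1.12 to 1.14%) and beta cells low in Spp1 had 1.08% (1.08 to 1.09%). These intervals, like all others here, cover counting error alone. The place of beta cells depends on the total: with hormone transcripts included, the shares were 0.571, 0.591, 0.551 and 0.626% in beta cells low in Spp1 and 0.625, 0.665, 0.575 and 0.679% in alpha cells, the reverse order, with delta cells still highest at 0.868% or more. Beta cells high in Spp1 did not have a single place in that order: their shares were 0.705, 1.34, 0.699 and 1.33%, below the alpha cells of libraries 1 and 3 and above the alpha cells of libraries 2 and 4 (with hormone transcripts included, 0.459, 0.590, 0.444 and 0.599%, below the alpha cells of every library). The cells outside the hormone gates, a mixture of immune, ductal, endothelial and other cells, stood at 0.613, 0.629, 0.601 and 0.693%. This mixture also held cells with Ppy and Pyy as leading genes, and its makeup differed between libraries. Hormone genes supplied 1.16, 13.8, 2.35 and 20.5% of its UMIs.

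**Figure D1:**
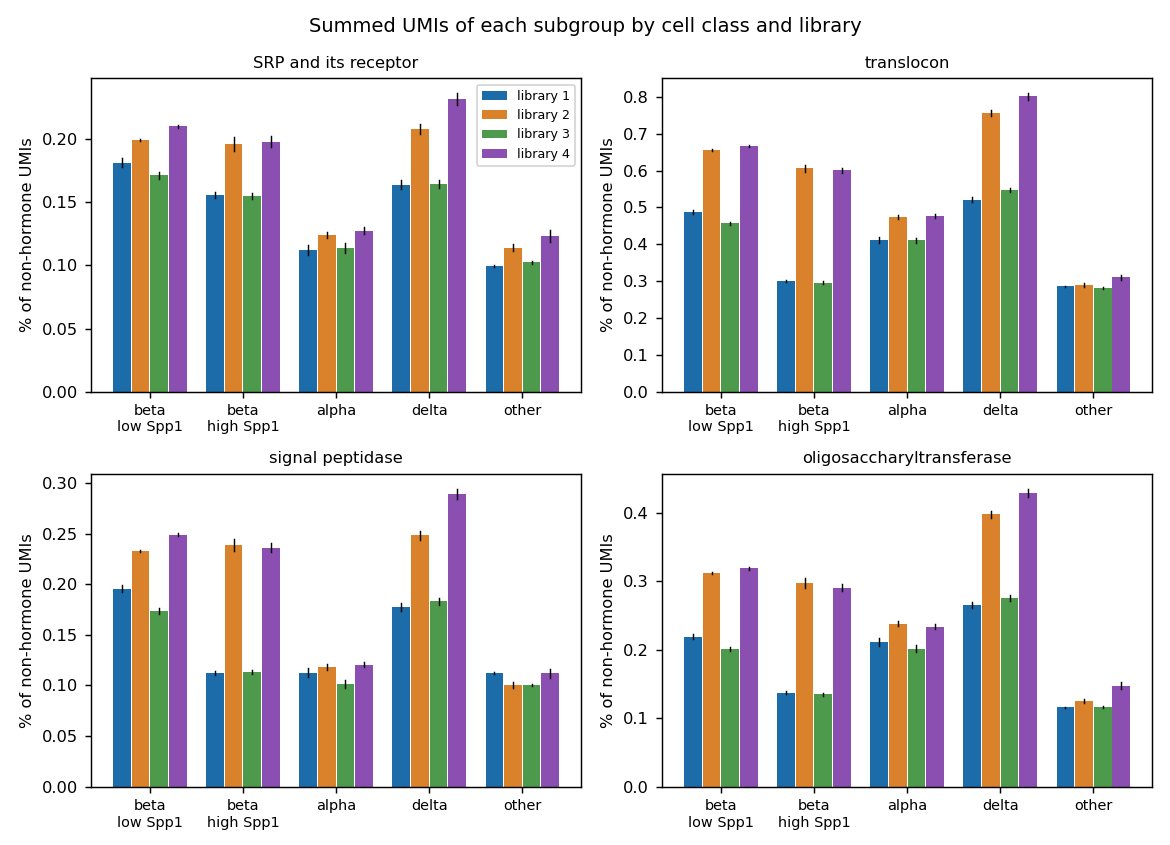
Summed UMIs of the 8 genes of the signal recognition particle (SRP) and its receptor, the 10 translocon genes, the 5 signal peptidase genes and the 7 oligosaccharyltransferase genes, as a percentage of non-hormone UMIs (vertical axis), in 5 cell classes (horizontal axis), with 1 bar a library and exact Poisson 95% intervals as error bars. Bars of beta cells high in Spp1 are much shorter in libraries 1 and 3 than in libraries 2 and 4 for the translocon (0.300 and 0.296% against 0.607 and 0.601%), signal peptidase and oligosaccharyltransferase, while alpha-cell bars differ little between libraries.

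Since Xbp1 binds promoters with known sequence motifs, the start regions of the members were searched for them. RefSeq promoter windows (build GRCm38.p6, 250 bases before and 50 after each start) were found for 22 of the 30 members, all but Sec61a1, Ssr2, Spcs3, Sec11c, Srp19, Srp68, Tram1 and Ostc. Both strands were searched. The ER stress element, CCAAT followed after 9 bases by CCACG, was in the windows of 0 of 22 members and in 0.119% of the 32851 windows of all genes. The unfolded protein response element TGACGTG was in 1 member, Srpr, and in 2.01% of all windows. Its core ACGTG, which the longer motif contains, was in 10 members (45.5%) and 19.6% of all windows. The separate boxes were frequent: CCAAT occurred in 13 members (59.1%) against 37.4% of all windows, and CCACG, which can overlap the core, in 14 members (63.6%) against 32.8%. Members were counted by gene and the background by window. Of 48 genes with a window from the lists of neighbouring steps described below, 17 held ACGTG, 17 CCAAT and 28 CCACG. Among the same 48, 3 held TGACGTG and 1 the ER stress element. A match describes letters and not binding.

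The upstream 250 bases of 4 members are printed below, 5′ to 3′ in the direction of transcription, with all matches to these motifs in capitals. They are shown because Srpr holds the only TGACGTG, its partner subunit Srprb and the translocon gene Ssr1 hold the core on 1 or both strands, and Ddost, 1 of the members that differed most with Spp1 among beta cells of libraries 1 and 3, holds only CCAAT boxes upstream. Srpr lies at chr9:35210953-35211202 on the plus strand, Srprb at chr9:103202066-103202315 on the minus strand, Ssr1 at chr13:37994209-37994458 on the minus strand and Ddost at chr4:138304488-138304737 on the plus strand.
Srpr: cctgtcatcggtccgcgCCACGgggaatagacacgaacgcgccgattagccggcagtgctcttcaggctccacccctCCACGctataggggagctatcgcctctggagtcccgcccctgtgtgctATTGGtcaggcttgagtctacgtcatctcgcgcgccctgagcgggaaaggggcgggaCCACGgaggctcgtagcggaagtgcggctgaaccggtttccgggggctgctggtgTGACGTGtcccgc
Srprb: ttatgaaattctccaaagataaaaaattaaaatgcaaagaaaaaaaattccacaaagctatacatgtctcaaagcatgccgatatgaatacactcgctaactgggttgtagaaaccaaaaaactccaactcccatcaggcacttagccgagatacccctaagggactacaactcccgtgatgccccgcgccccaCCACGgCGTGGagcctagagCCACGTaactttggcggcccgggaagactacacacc
Ssr1: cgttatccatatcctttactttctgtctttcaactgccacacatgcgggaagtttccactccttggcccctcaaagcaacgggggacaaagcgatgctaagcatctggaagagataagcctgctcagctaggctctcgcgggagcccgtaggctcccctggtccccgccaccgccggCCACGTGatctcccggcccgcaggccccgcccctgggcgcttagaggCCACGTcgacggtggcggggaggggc
Ddost: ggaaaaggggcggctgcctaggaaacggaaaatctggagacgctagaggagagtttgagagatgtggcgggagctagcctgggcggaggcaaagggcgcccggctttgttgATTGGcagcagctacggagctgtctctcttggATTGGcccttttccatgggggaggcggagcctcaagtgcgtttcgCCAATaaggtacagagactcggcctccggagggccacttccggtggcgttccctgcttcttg
In Srpr the first base of TGACGTG is 13 bases before the start, and CCACG begins 233, 173 and 68 bases before it. In Ssr1 the core occurs on both strands from 72 and 71 bases before the start and once more at 25 bases before it. In Ddost the CCAAT boxes begin 139, 107 and 62 bases before the start, the first and second of them on the opposite strand (ATTGG).

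Beta cells low in Spp1 held more message for the signal peptidase and for part of the signal recognition particle than alpha cells of the same library. 5 of 30 members were at least 1.5-fold higher in all 4 libraries: Srp14, Srp19, Ssr4, Spcs1 and Sec11c. None of the 30 was lower by that rule. Among the 12828 genes tested, 6.17% were higher and 4.9% lower by the same rule, so the members were called higher in a larger share than genes at large. With only 30 members, nothing is read from the 0 lower. A pseudocount of 1 in place of 10 gave the same 5 members higher and 0 lower, where 10.1% of genes were higher and 9.26% lower. The members' median log2 ratio was 0.15, 0.45, 0.10 and 0.49 in the 4 libraries, and that of all genes tested 0.033, -0.029, 0.031 and -0.042. By subgroup, the median over libraries was 0.66 for the signal peptidase, 0.48 for the signal recognition particle and its receptor, 0.19 for the translocon and 0.16 for the oligosaccharyltransferase.

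Within the signal recognition particle, Srp14, which with Srp9 forms the part that slows translation, stood at 753, 714, 753 and 759 CPM in beta cells low in Spp1 and at 343, 393, 343 and 439 in alpha cells. The log2 ratios of Srp14 were 1.11, 0.84, 1.11 and 0.78, with no overlap between the classes. Srp19, which prepares the particle's RNA for the Srp54 subunit, stood at 163, 173, 154 and 173 against 84.8, 89.6, 87.1 and 82.6. It was close to even across libraries within each class. Srp9 had ratios of 0.66, 0.75, 0.51 and 0.87, above 1.5-fold in libraries 1, 2 and 4. Srp68 and Srp72, which bind each other on the particle, had medians of only 0.14 and 0.077. The receptor subunits Srpr and Srprb had medians of 0.56 and 0.39.

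Among translocon genes 1 member stood apart. Ssr4, the delta subunit of the translocon-associated protein complex that helps chains with weak signal peptides to enter, stood at 1584, 1419, 1376 and 1481 CPM in beta cells low in Spp1 and at 633, 711, 686 and 721 in alpha cells, a median log2 ratio of 1.01. The other subunits of that complex were not called, and the medians of Ssr1, Ssr2 and Ssr3 were -0.18, -0.24 and 0.24. Sec61a1, which encodes the pore of the Sec61 channel, was lower in beta cells in all libraries, with ratios of -0.64, -0.27, -1.03 and -0.33, though not by 1.5-fold in libraries 2 and 4. Its partner Sec61b had ratios of 0.14, 0.57, 0.12 and 0.49. Sec62, which serves entry after translation and also ER turnover, had a median of 0.59, and Tram1, a membrane protein beside the channel, had one of 0.59.

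The signal peptidase held the member with the highest ratio. Sec11c, 1 of its 2 alternative catalytic subunits, stood at 557, 501, 445 and 571 CPM in beta cells low in Spp1 and at 185, 195, 143 and 214 in alpha cells. In library 3, where both values were lowest, the intervals were 432 to 458 and 130.3 to 157. The log2 ratios of 1.54, 1.32, 1.57 and 1.37 correspond to 2.75-fold at the median. Spcs1, a small accessory subunit, stood at 486, 507, 473 and 501 against 254, 243, 236 and 247, which was nearly the same ratio in each library. The median ratios of the accessory subunits Spcs2 and Spcs3 and of Sec11a, the other catalytic subunit, were 0.63, 0.65 and 0.53, and all 3 were above 0 in every library. No oligosaccharyltransferase gene was called. Dad1, a small subunit needed for the stability of the complex, had the highest median of these at 0.49, and the catalytic genes Stt3a and Stt3b had medians of -0.21 and -0.24.

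The direction of this comparison as a whole rests on the total used. With hormone transcripts in the total, the median log2 ratio of the members was -0.20 and that of all genes tested -0.28. The counts were then 1 member higher (Sec11c, median 0.86) and 5 lower, where 1.97% of genes were higher and 10.9% lower. Beta cells also gave more UMIs, with medians of 37238 to 48098 a cell across libraries against 11251 to 12977 in alpha cells, and the part of depth in these ratios was not tested. The median alpha cell had 0.0719, 1.27, 0.0922 and 0.631% of its UMIs from Ins2, and removing a matching amount of beta-cell RNA, an alternative added after the data were seen, moved none of these ratios beyond the spread between libraries.

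Against delta cells the picture differed: beta cells low in Spp1 had lower levels of the oligosaccharyltransferase. All 7 of its genes had log2 ratios below 0 in each library, with a median of -0.38, and 27.2% of all genes tested were below 0 in each library. Over the whole machinery, however, 0 of 30 members were higher and 1, Ssr2, was lower by 1.5-fold in every library, where 3.65% and 3.84% of 12974 genes were. A count of 1 is about the background share. The members' median was -0.054, -0.15, -0.20 and -0.24, while all genes tested had a median of 0.030, 0.0088, 0.032 and 0.0066. Of the members 5 were above 0 in all libraries, 16 below and 9 of mixed sign, and of all genes tested 32.1% were above and 27.2% below.

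Ssr2, the beta subunit of the translocon-associated protein complex, stood at 215, 331, 199 and 332 CPM in beta cells low in Spp1 and at 338, 592, 332 and 615 in delta cells. The ranges met, since libraries 2 and 4 of the beta cells lay near libraries 1 and 3 of the delta cells, but within each library delta cells were higher. Ddost, a non-catalytic oligosaccharyltransferase subunit, stood at 358, 462, 316 and 498 against 482, 696, 535 and 836. Its ratios were -0.42, -0.58, -0.74 and -0.74, past 1.5-fold only in libraries 3 and 4. Stt3b had ratios of -0.41, -0.47, -0.42 and -0.57, Rpn1 of -0.48, -0.28, -0.56 and -0.35, Ostc of -0.41, -0.31, -0.61 and -0.34 and Rpn2 of -0.12, -0.27, -0.43 and -0.36. These 4 genes encode, in that order, a catalytic subunit, the large ribophorin I, a small accessory subunit and ribophorin II.

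Ssr1 and Ssr3, the other subunits of the translocon-associated protein complex with ratios below 0 throughout, had medians of -0.52 and -0.30, Sec61g of -0.46 and Spcs2 of -0.47. The signal peptidase as a group had a median of 0.071, and Sec11c, so different from alpha cells, had ratios of 0.42, -0.28, 0.022 and -0.34, with delta-cell levels of 415, 609, 438 and 726 CPM. With hormone transcripts in the total the members' median fell to -0.72 and 13 of 30 members were lower, where 10.1% of genes were, while the median of all genes tested was -0.30. Delta cells of library 1 carried acinar markers at 3402 CPM, and without library 1 the count remained 1 member lower.

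Most of the machinery was lower in alpha cells than in delta cells. In this comparison, 6 of 30 members were at least 1.5-fold lower in every library and 0 were higher, where 6.36% of 12100 genes were lower and 5.05% higher. These were Srp14, Srp19, Sec62, Ssr4, Spcs2 and Sec11c, and 24 members were below 0 in all libraries and 2 above, where 31.8% of all genes tested were below and 34.9% above. The comparison with beta cells above uses the same alpha cells. The members' median was -0.29, -0.61, -0.34 and -0.73, against -0.0035, 0.040, 0.0021 and 0.053 for all genes tested. Sec11c had log2 ratios of -1.13, -1.59, -1.55 and -1.71, or 2.97-fold lower at the median.

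Spcs2 stood at 359.9, 377, 314 and 389 CPM in alpha cells and at 604, 904, 629 and 1081 in delta cells. Every delta-cell value of Spcs2 exceeded every alpha-cell value. Ddost, Ostc and Dad1 of the oligosaccharyltransferase had medians of -0.82, -0.75 and -0.74. Spcs1 had one of -0.76 and Srp9 one of -0.74. 2 members went against the general order and were above 0 in all libraries. Sec61a1 stood at 200.2, 266, 227 and 253 CPM in alpha cells and at 128, 218, 123 and 209.5 in delta cells, with ratios of 0.60, 0.28, 0.84 and 0.26. Srp54a, with its uncertain counts, had a median of 0.36. Alpha cells and delta cells had similar hormone shares. With hormones in the total the members' median was -0.54, and 9 members were lower, where 6.31% of genes were. Without library 1, whose delta cells carried acinar markers, 9 members were lower, where 7.06% of genes were.

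**Figure D2:**
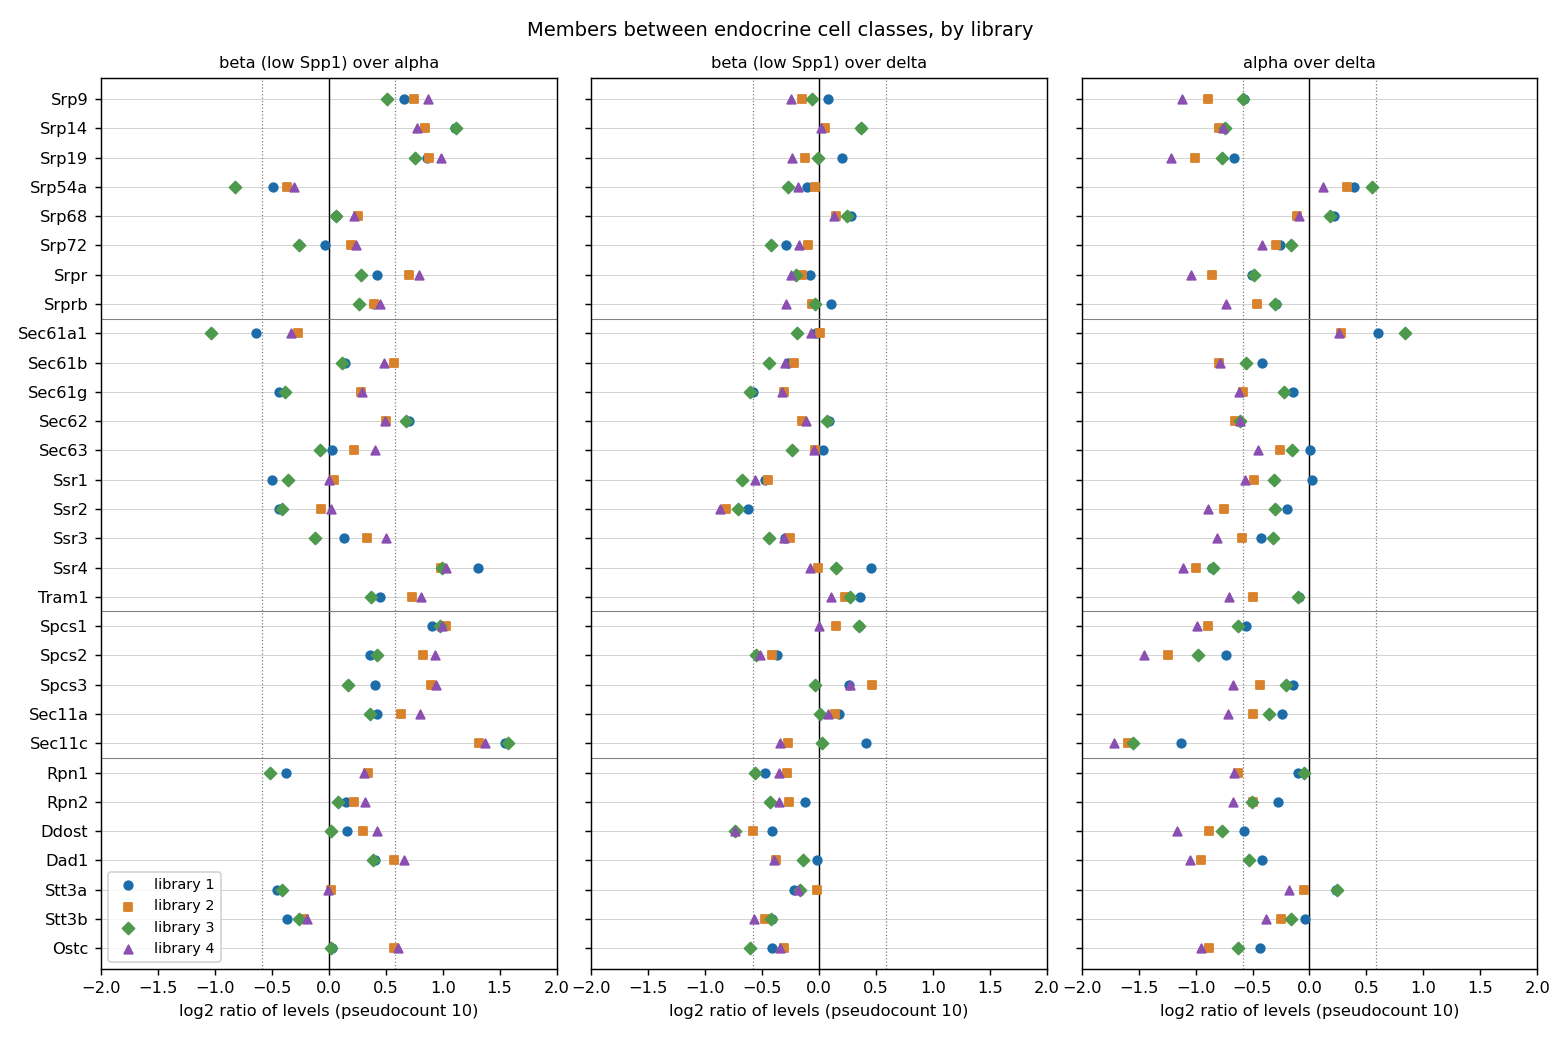
Log2 ratios of the 30 members (rows, ordered from the signal recognition particle at the top to the oligosaccharyltransferase at the bottom) between cell classes, on the CPM scale with a pseudocount of 10. Each symbol is 1 library and the dotted lines mark 1.5-fold. Sec11c lies at 1.32 to 1.57 in the left panel, between -0.34 and 0.42 in the middle panel and at -1.71 to -1.13 in the right panel.

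Beta cells high in Spp1 had less of the machinery than beta cells low in Spp1 in libraries 1 and 3, and nearly the same amount in libraries 2 and 4. No member was past 1.5-fold in all 4 libraries, in either direction, where 0.136% of 13206 genes were higher and 0.0454% lower. On the total without hormones, however, 12 of 30 members were lower by 1.5-fold in library 1, where 2.52% of genes were. In library 3, 10 of 30 were lower, where 2.49% were. In libraries 2 and 4, 0 of 30 were lower, where 1.04% and 0.515% were. No member was higher by 1.5-fold in any library, with 1.33, 1.11, 1.07 and 0.916% of genes higher in libraries 1 to 4. The pseudocount of 10 pulls the ratios of scarce genes towards 0, which holds down the shares of all genes. With a pseudocount of 1, 0.432% of genes and 0 members were lower in all 4 libraries. The shares by library were not recomputed that way. The members' median log2 ratio was -0.56, -0.051, -0.51 and -0.11, while all genes tested had -0.028, -0.049, -0.013 and -0.046. The ratios of 21 members were below 0 in all libraries and of 0 above, where 20.6% of all genes tested were below and 7.91% above.

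The signal peptidase and the oligosaccharyltransferase had the widest spread. Sec11c stood at 147, 539.5, 133 and 589.8 CPM in beta cells high in Spp1 and at 557, 501, 445 and 571 in those low in Spp1. Its log2 ratios were -1.86, 0.10, -1.67 and 0.045, so Sec11c was far lower in libraries 1 and 3 and slightly higher in libraries 2 and 4. In library 1 the counting intervals were 139 to 154 and 539 to 576. Spcs3 had ratios of -1.07, -0.077, -0.62 and -0.070 and Spcs2 of -0.67, 0.054, -0.56 and -0.14. Spcs1, a subunit of the same enzyme, stayed within 1.5-fold in every library, with ratios of -0.15, -0.069, -0.032 and -0.14.

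Rpn2, ribophorin II, stood at 107, 329, 107 and 314 CPM in beta cells high in Spp1 and at 274, 336, 241 and 339.6 in those low in Spp1. Its ratios were -1.28, -0.028, -1.11 and -0.11. Ddost, a subunit of the same complex, stood at 170.1, 458, 165 and 458 against 358, 462, 316 and 498, with ratios of -1.03, -0.012, -0.90 and -0.12. Both genes had their lowest levels in libraries 1 and 3 of the cells high in Spp1. Ostc followed with -0.95, -0.040, -0.78 and -0.17 and Rpn1 with -0.75, -0.15, -0.51 and -0.17. Dad1 had the narrowest range of the complex, -0.18, -0.093, -0.16 and -0.10, and the catalytic genes Stt3a and Stt3b had medians of -0.31 and -0.13.

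In the translocon, Sec61b had ratios of -0.89, -0.16, -0.82 and -0.19 and Sec61g of -0.54, -0.20, -0.67 and -0.13. These 2 small channel subunits lay below 0 throughout, as did Ssr4, with -0.85, -0.045, -0.71 and -0.16, Ssr2, with -0.56, -0.13, -0.62 and -0.21, and Tram1, with -0.59, -0.077, -0.51 and -0.15. Sec62 lay close to 0, with -0.19, -0.041, -0.14 and -0.15. The signal recognition particle differed least: its median was -0.30, -0.048, -0.28 and -0.10, and Srp14 had ratios of 0.090, -0.038, 0.12 and -0.094. Its receptor subunit Srpr was the only gene of this group past 1.5-fold, with -0.67, 0.10, -0.62 and -0.11.

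**Figure D3:**
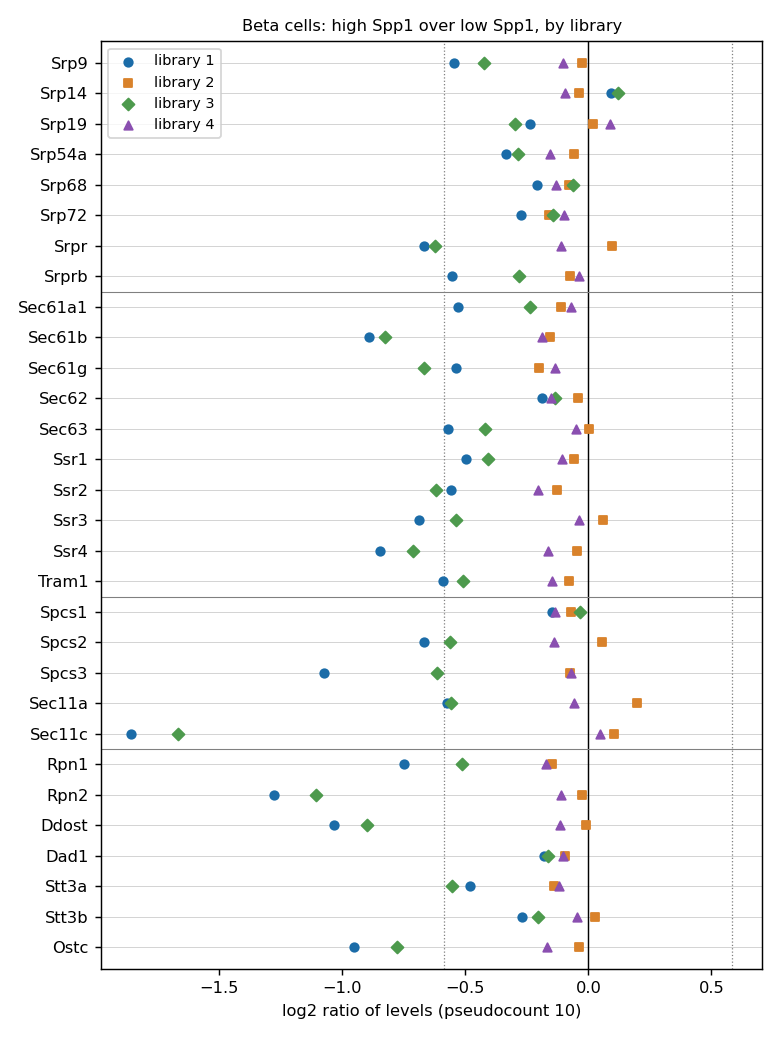
Log2 ratio of each member's level in beta cells high in Spp1 over beta cells low in Spp1 (horizontal axis, pseudocount 10), with the members in rows by subgroup, 1 symbol a library and dotted lines at 1.5-fold. Libraries 2 and 4 stay inside the dotted lines for all 30 members, while libraries 1 and 3 pass the lower line for 12 and 10 of them, with Sec11c at -1.86 and -1.67.

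Other measures moved with these values. Hormone genes supplied 35.0, 55.9, 36.6 and 54.8% of UMIs in beta cells high in Spp1 and 47.3, 57.8, 45.0 and 56.7% in those low in Spp1. With hormone transcripts in the total, the members' medians were -0.27, 0.0066, -0.30 and -0.049 and those of all genes tested 0.12, -0.0096, 0.089 and -0.0078. The members' medians of libraries 1 and 3 were thus smaller in size on that total. In all libraries together, 0 members and 0.0227% of genes were lower by 1.5-fold on it. The counts of members past 1.5-fold in single libraries were taken without hormones only. The median Spp1 share of the cells high in Spp1 was also larger in libraries 1 and 3, at 1.76, 0.828, 1.63 and 0.933%. The 6 ductal markers, of cells that also express Spp1, summed to 932, 769, 688 and 879 CPM in cells high in Spp1 and to 715, 681, 751 and 765 in cells low in Spp1. Acinar markers summed to 5086, 0, 9.30 and 1.00 CPM in cells high in Spp1. The alpha cell markers other than Gcg, of which Ttr gave the most, summed to 4436, 261, 4382 and 288 CPM in cells high in Spp1. In cells low in Spp1 they summed to 3171, 573, 3339 and 397, so they too were high in libraries 1 and 3. The part of these measures in the ratios was not tested. Spp1 and the members were counted in the same cells, and a smaller share for the members and a larger share for other genes cannot be told apart.

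On the total without hormones, the machinery varied between libraries within beta and delta cells and hardly within alpha cells. In beta cells low in Spp1, 12 of the 29 members at 50 CPM or more had a range over libraries of at least 1.5-fold, where 18.5% of 4277 genes did. In beta cells high in Spp1, 22 of 29 did, where 31.3% of genes did. In delta cells 18 of 29 did, where 11.2% did, but without library 4 the count was 7 (Sec61a1, Sec61b, Sec61g, Ssr2, Tram1, Rpn1 and Dad1), where 7.82% did. In alpha cells 0 of 28 did, where 6.03% did. In beta cells low in Spp1, 25 of the 29 were lowest in library 3, with 16 highest in library 4 and 11 in library 2. Of the 4277 genes measured in these cells, 1236 were lowest in library 3, 1120 highest in library 4 and 907 in library 2. In delta cells 25 members were highest in library 4 and 20 lowest in library 1, as were 1121 and 1155 of 4121 genes.

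The widest ranges in beta cells low in Spp1 were those of Spcs3, at 224, 374, 182 and 369 CPM, and of Sec61a1, at 125, 219, 106 and 199. Both were highest in library 2. Sec61g stood at 822, 1583, 854 and 1572, Ostc at 458, 737, 405 and 776 and Rpn1 at 239.7, 431, 226 and 407. For these genes too, libraries 2 and 4 were high and libraries 1 and 3 low. Sec61b, Spcs2 and Ssr3 had ranges of 1.83, 1.75 and 1.69-fold in the same direction. Marker genes other than hormone genes also differed between these libraries. The alpha cell markers summed to 3171, 573, 3339 and 397 CPM in beta cells low in Spp1, and the beta cell markers to 1974, 3687, 1923 and 2861. The part of these differences in the members' ranges was not tested. Sec62 ran the other way, at 324, 287, 372 and 293, highest in library 3. Srp14, at 753, 714, 753 and 759, and Spcs1, at 486, 507, 473 and 501, were close to level across libraries. With hormone transcripts in the total, 4 of 26 members at 50 CPM or more had a range of 1.5-fold in beta cells low in Spp1, where 27.4% of genes did, so the members were then called in a smaller share than genes at large. On that total the range of the members' library medians was 0.23 in place of 0.54 on the log2 scale. In beta cells high in Spp1, 16 of 26 members had a range of 1.5-fold on that total, where 60.2% of genes did, about the same share.

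In delta cells the widest range was that of Ssr2, at 338, 592, 332 and 615 CPM, followed by Spcs2 (1.78-fold), Sec11c (1.73-fold), Sec61a1, Dad1 and Ddost (each 1.72-fold). With hormone transcripts in the total, 10 of 29 members had a range of 1.5-fold in delta cells, where 11.3% of genes did. In alpha cells the widest was that of Sec11c, 1.46-fold. Hormone shares of delta and alpha cells lay within 23.1 to 28.6% and 26.3 to 30.4%, so they differed less between libraries than those of beta cells. Libraries also differed in makeup, with 2498, 475, 1959 and 269 cells outside the hormone gates. Whether that bears on the levels was not tested.

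**Figure D4:**
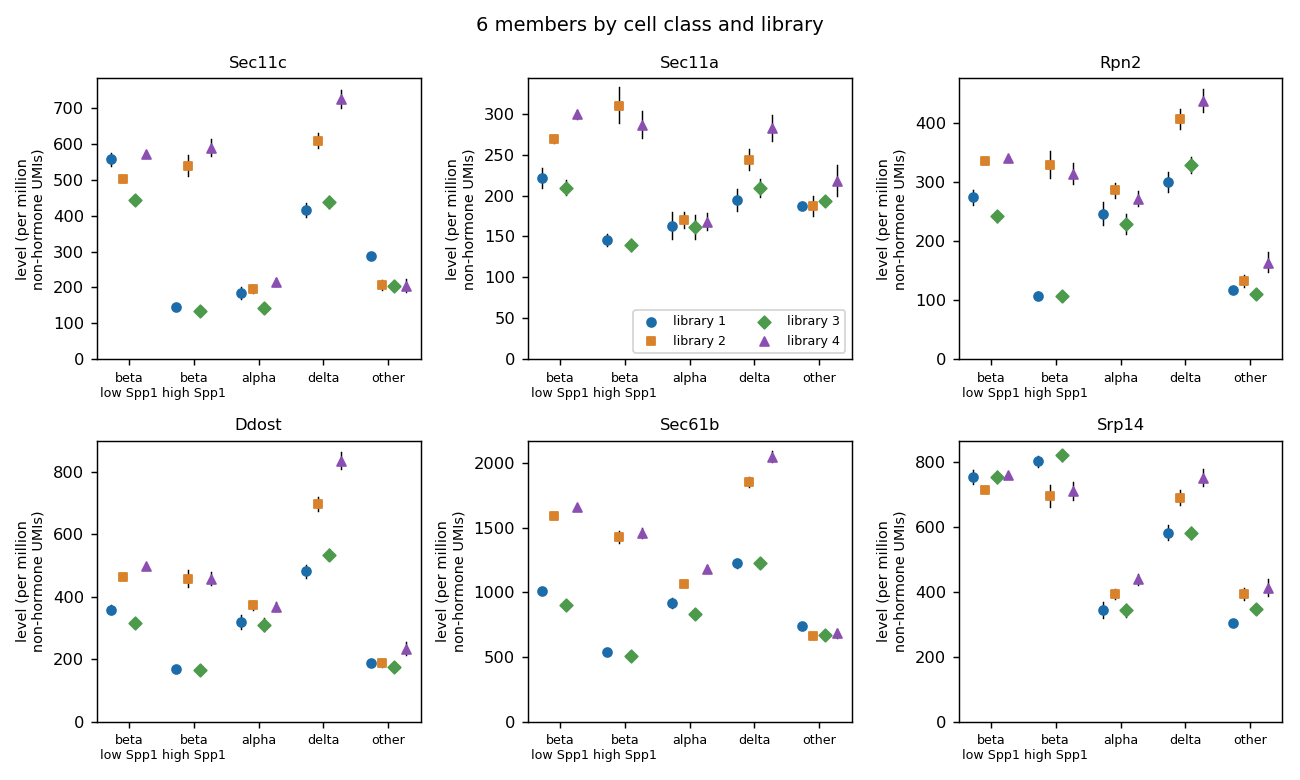
Levels of 6 members in CPM without hormone genes in the total (vertical axes, from 0) in 5 cell classes (horizontal axes), with 1 symbol a library and exact Poisson 95% intervals as bars. Sec11c, Rpn2, Ddost and Sec61b are low in libraries 1 and 3 of beta cells high in Spp1, whereas Srp14 stays between 695 and 820.0 there.

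Ratios between partner genes within a class do not depend on the total. Among UMIs of the 2 catalytic signal peptidase genes, Sec11c made up 71.6, 65.1, 67.95 and 65.6% in beta cells low in Spp1 and 68.1, 71.4, 67.7 and 72.02% in delta cells. In alpha cells its share was 53.1, 53.5, 47.1 and 56.1%, below all of these. In beta cells high in Spp1 it was 50.2, 63.5, 48.9 and 67.3%, so libraries 1 and 3 lay in the range of alpha cells and libraries 2 and 4 near the other beta cells. The exact binomial 95% interval in library 1 was 48.5 to 51.9% for cells high in Spp1 and 70.3 to 72.8% for cells low in Spp1.

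The catalytic oligosaccharyltransferase genes divided more evenly between classes. Stt3a, whose complex acts at the channel during entry, made up 74.4, 79.8, 73.6 and 79.00% of the UMIs of Stt3a and Stt3b in beta cells low in Spp1. It made up 75.1, 76.6, 75.3 and 76.5% in alpha cells and 71.2, 73.5, 69.3 and 73.4% in delta cells. Delta cells had the lowest share of the 3 in every library. Cells outside the gates had 58.3, 66.4, 57.9 and 70.00%, but they are a mixture whose makeup differs between libraries. Sec62 made up 71.9, 64.04, 75.5 and 64.5% of Sec62 and Sec63, its partner in the membrane, in beta cells low in Spp1, and 61.03, 59.3, 63.99 and 63.3% in alpha cells. Sec61a1 made up 17.9, 19.97, 21.4 and 17.6% of Sec61a1 and Sec61b in alpha cells. Its share in beta cells low in Spp1 was 11.04, 12.1, 10.50 and 10.7%, below every alpha-cell value, and in delta cells it was 9.47, 10.52, 9.07 and 9.28%.

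Neighbouring steps of the pathway were read from 5 further lists. In beta cells low in Spp1 against alpha cells, 3 of 15 measured genes of tail-anchored and multispanning protein insertion were called higher and 1 lower. The higher genes Emc4, Emc6 and Emc7, subunits of the ER membrane protein complex, had medians of 1.13, 0.87 and 1.20, and Emc1, its large subunit, one of -0.80. Of 10 genes of the multipass translocon and other channels 3 were higher: Ccdc47 (1.20), Tmem147 (0.86) and Tmco1 (0.81), all parts of the translocon for multispanning proteins. Of 5 accessory oligosaccharyltransferase genes 2 were higher, Krtcap2 (1.18), found with Stt3a, and Tusc3 (0.81), found with Stt3b. Of 23 genes that build the lipid-linked glycan 1 was higher, Alg5 (0.66), and of 5 that trim glycans 1, Prkcsh (0.82), the regulatory subunit of glucosidase II. These counts stand beside the 6.17% of all genes called higher and 4.9% called lower, and the 1 of 23 lies below that share.

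Against delta cells, where 3.65% of all genes were called higher and 3.84% lower, these lists gave 3 calls: Tmem147 (0.82) and Prkcsh (0.88) were higher and Tmem258 (-0.71), a small oligosaccharyltransferase subunit, was lower in beta cells low in Spp1. In alpha cells against delta cells, 3 insertion genes (Emc4, Emc6 and Emc7, at -0.82, -0.65 and -0.96), 2 accessory oligosaccharyltransferase genes (Tusc3 at -1.27 and Krtcap2 at -1.25) and 1 lipid-linked glycan gene (Alg14 at -0.64) were lower. None was higher, and of all genes 6.36% were lower and 5.05% higher. Between the beta classes, where 0.136% of all genes were higher and 0.0454% lower, none of the measured genes of the 5 lists was past 1.5-fold in all libraries. Magt1, the alternative to Tusc3, had ratios of -1.31, -0.11, -1.19 and -0.15, and Prkcsh had -0.65, -0.11, -0.52 and -0.0032. The list medians there were -0.33, -0.083, -0.34 and -0.079 for accessory oligosaccharyltransferase genes and -0.21, -0.070, -0.15 and -0.086 for genes that build the glycan.

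Plasma cells, the antibody-secreting form of B cells, were also found among the islet cells. Each cell outside the hormone gates was named from its own marker genes, which for plasma cells include Xbp1. The plasma cell-like ones numbered 74, 2, 26 and 0, so only libraries 1 and 3 gave levels. Their leading genes were Jchain, Igkc and Ighm, and Igkc alone stood at 157454 and 306383 CPM. The 30 members took 1.86 and 1.37% of their non-hormone UMIs, against 1.08 and 1.00% in beta cells low in Spp1 of the same libraries. 11 members were at least 1.5-fold higher in both libraries and 1 was lower, where 5.45% of 13148 genes were higher and 45.8% lower. The members' median log2 ratio was 0.60 and 0.26, and that of all genes -0.59 and -0.74.

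Sec11c stood at 2171 and 1932 CPM in these cells, against 557 and 445 in beta cells low in Spp1, the highest log2 ratios of all members in both libraries at 1.94 and 2.09. Spcs2 stood at 1348 and 1033, with ratios of 1.51 and 1.26. Ssr2 had ratios of 1.73 and 1.00, Srprb of 1.58 and 0.99 and Sec61b of 1.37 and 0.88. The member that was lower was Srp14, at 324 and 241 CPM against 753 and 753. Ssr4, called higher in beta cells than in alpha cells, had ratios of -0.078 and 0.076.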

How the data were processed

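Dispersed islet cells of 4 samples were sequenced as single cells. The authors deposited 1 filtered matrix of UMI counts per gene and cell, made with Cell Ranger 6.1.2 on mm10 per the submitters' processing notes, with whole-number counts for 32285 genes and 19987 barcodes. The gene and barcode lists were deposited beside it. The barcode suffixes were used as libraries; none matched a sample label, and so no groups were compared and no test across samples was made.

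Cells with at least 500 genes and at most 20% mitochondrial UMIs were kept (16146). No doublet caller was run: cells past several hormone gates were set aside, and other doublets remain. UMIs were summed by class and library and divided by the total without 7 hormone genes. Log2 ratios used a pseudocount of 10 and genes with at least 10 UMIs in either class of every library, and libraries with at least 50 cells in both classes. A gene was called when it passed 1.5-fold in every library, and ranges between libraries used genes at 50 CPM or more. Poisson and Clopper-Pearson binomial intervals are exact, at 95%. Per comparison the text names the 10 members with the largest median ratio of 1 sign, both genes of each partner pair and up to 3 genes of each further list; between libraries it names the 8 widest in beta cells low in Spp1. A few more are named to complete a complex and were chosen after their values were seen. A single cell outside the gates needed at least 3 detected markers of a type, and more than of any other type, for a name. A type needed 25 cells in a library for a level. No clustering was run. Alternatives were the total, the cell filter, the pseudocount, the UMI minimum, means over cells, the gates, the Spp1 division, cells past several gates and each library left out. The members, lists and rules were chosen with earlier results of these data known. Of the gene identifiers, 32158 (99.6%) were in GENCODE M21. The code was tested on simulated data and used Python 3.11.15, numpy 2.4.6, scipy 1.17.1 and pandas 2.3.3.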

Additional observations from a re-analysis of the deposited data

Results flagged for a closer look

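Cells that passed more than 1 hormone gate were set aside from all main comparisons, yet they carried the machinery at a level near that of the beta cells low in Spp1 of their library. The 30 members took 1.03, 1.35, 1.00 and 1.47% of the non-hormone UMIs in libraries 1, 2, 3 and 4, from 76, 256, 131 and 168 cells. Cells outside the hormone gates that could not be named from marker genes carried it at 0.713, 0.852, 0.680 and 0.899%, from 243, 130, 276 and 109 cells. Both sets drew attention because the main comparisons left them out. Cells past several gates entered only the alternative that kept them. The leading genes of the unnamed cells were Ppy, Pyy and Vip.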

How the results depend on the processing

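Of 1005 values recomputed under other settings, 956 moved by less than the spread between libraries (counts, by no more than 1.5 times), 45 moved by more and 4 reversed. A value was called reversed if it had 1 sign in every library and then changed sign. Of these, 34 of the 45 and all 4 reversed values came from putting hormone transcripts back into the total, which lowers all other genes of beta cells by its construction. Dropping the UMI minimum could not move the members' ratios, since all 30 already passed it. The limit is also loose where libraries differ widely. Between the beta classes the members' median went from -0.31 to -0.16 with hormones in the total and stayed within it. The 45 include the translocon median of beta cells low in Spp1 against alpha cells. It was of mixed sign between libraries and went from 0.19 to -0.38 with hormones in the total. Beta cells low in Spp1 against alpha cells then had a members' median of -0.20 (0.30 without hormones), medians of -0.021 for the signal recognition particle and -0.38 for the oligosaccharyltransferase (0.48 and 0.16 without), 1 member higher and 5 lower. Against delta cells the members' median was -0.72, that of the signal peptidase -0.50 (0.071 without), and 13 members were lower. Between libraries the range of the medians was 0.23 in beta cells low in Spp1, with 4 members past 1.5-fold there and 10 in delta cells. Keeping cells past several gates left 0 members lower against delta cells; the cause was not tested. A pseudocount of 1 raised the share of all genes called. In alpha against delta cells 10.2% of genes were then lower, with 8 members. Between the beta classes 0.432% of genes were lower, with 0 members. Levels taken as the mean over cells put 1 member past 1.5-fold between libraries in alpha cells, in place of 0. Leaving out 1 library at a time was run for the class comparisons and for the counts between libraries. For the latter it was added after the data were seen, as were all alternatives for classes other than beta cells low in Spp1. It moved 1 value beyond these limits, the count of members past 1.5-fold in delta cells, which was 7 to 18 and lowest without library 4; without library 1, 9 members were lower in alpha than in delta cells in place of 6. No paired analysis was possible because the barcode suffixes carry no replicate number and match no sample. Depth limits the rarest members most: Srp54a had as few as 56 UMIs in a class of gated cells.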

Other observations

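Among other islet cells, the catalytic signal peptidase genes were balanced differently in endothelial-like cells than in hormone cells. Sec11c stood at 55.9, 45.2, 65.0 and 42.8 CPM there and Sec11a at 191, 209, 166 and 242, from 152, 113, 162 and 79 cells. The whole machinery took 0.540, 0.528, 0.517 and 0.510% of their UMIs, nearly the same in each library. Ductal-like cells, with 30 or more cells in libraries 1, 2 and 3, had 0.635, 0.686 and 0.634%, and Sec11c at 235, 177 and 200 CPM beside Sec11a at 246, 195 and 254. Fibroblast-like cells of libraries 1 and 3 had 0.743 and 0.793%, and macrophage-like cells 0.523, 0.516, 0.523 and 0.489%.

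B cell-like cells, the lineage that gives rise to plasma cells, carried the machinery at 0.363, 0.457 and 0.405% in libraries 1, 2 and 3, with Sec11c at 225, 252 and 218 CPM. Plasma cell-like cells of libraries 1 and 3 had 1.86 and 1.37%, with Sec11c at 2171 and 1932. Immunoglobulin transcripts take a large part of the plasma cell total, which lowers all other genes on this scale. The plasma cell-like values come from 74 and 26 cells, those of B cell-like cells from 656, 25 and 499, and none was tested.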
